A study of Bos taurus with 12 samples.

Results

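The genes described here are imprinted genes with roles in fetal and early growth: DLK1, MEG3, H19, IGF2R, PEG3, CDKN1C, GRB10, PLAGL1, SGCE and MEST. The list of 10 symbols was selected on measured values of these same libraries, namely the difference of DLK1 between the diets and its wide variation among calves, so that the diet differences below are a description and carry no test. By the RefSeq names of their Entrez gene IDs, 9 of the 10 were found among the 30336 gene IDs of the count files, and all 9 passed the filter on low counts. PEG3, a zinc-finger transcription factor, was not analysed here.

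Liver was sampled by puncture biopsy from Holstein heifer calves at 4 d of age. The dams had been fed a basal diet alone (CON) or with ethyl-cellulose rumen-protected methionine, the product Mepron (MET), over the last 28 d of gestation, and after birth both groups of calves were kept and fed alike. Each diet had 6 libraries of polyadenylated RNA, and all 6 libraries of a diet carried the same first sequencing index, which differed between the diets, and an effect of the index cannot be told apart from that of the diet. The reads assigned to genes numbered 8277789 in the shallowest library and 10397604 in the deepest, and the CON median of 9211720 was close to the MET median of 9872815.

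CON replicates 1 and 4 were nearly identical, and so were MET replicates 1 and 3. Their chi-square per gene was 1.33 at most, against 25.1 or more in the other 64 of the 66 pairs. MET replicate 5 was the library farthest from the others, with a median chi-square per gene of 110.8 over its pairs, against medians of 34.6 to 64.9 for the other libraries, and fold changes are therefore also shown without it. Although the labels give separate calves, either pair entered as a single sample here, which leaves 5 samples per diet, and p-values measure the spread between these samples. Values over all 12 libraries, the design of the study's methods, stand beside those of the 10 samples. Expression is given in CPM, the reads of a gene scaled to the library's total of assigned reads and adjusted by TMM, which sets the libraries to a common level under the premise that most genes are alike. A floor of 3 reads equals 0.289 to 0.362 CPM before the TMM adjustment and covers counting error only. The tissue label was borne out by hepatocyte markers, as all 15 listed were expressed, with summed levels between 163000 and 264700 CPM.

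Imprinted genes are expressed mainly from the allele of a single parent, under control of DNA methylation that is laid down in the germ line and kept through cell divisions. As a group they act on the supply of nutrients to the fetus and on its growth. Paternally expressed genes such as IGF2 and DLK1 tend to promote growth, and maternally expressed genes such as H19, IGF2R and CDKN1C tend to restrain it, and many are high in fetal tissue and are turned down after birth. Methionine is the precursor of the methyl groups used for DNA methylation. Reads per gene do not tell the parental alleles apart, so that imprinting itself was not measured. In bulk tissue, fewer cells of a type and less RNA per cell cannot be told apart.

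H19 stood far above the others once levels were divided by exonic length. Over the 10 samples its mean was 1103 CPM per kb, which ranked 61 among the 13242 genes tested. MEG3 followed at 21.6, IGF2R at 17.1, DLK1 at 16.4, GRB10 at 8.77, SGCE at 7.07, CDKN1C at 3.85, MEST at 3.37 and PLAGL1 at 0.697 CPM per kb. In CON calves, neighbours in this order overlapped between samples for MEG3 and IGF2R, for DLK1 and GRB10, for GRB10 and SGCE, and for CDKN1C and MEST, so that these neighbours do not differ beyond their spread. The place of DLK1 depended on the diet. Its level per length was 7.66 ± 0.696 CPM per kb in CON (SD, n = 5) and 25.1 ± 26.5 in MET (SD, n = 5). In CON all DLK1 samples were below all IGF2R samples, whereas in MET the 2 genes overlapped.

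The 9 genes lie at 4 chromosomes of the assembly UMD 3.1.1. DLK1 (Entrez gene 281117, chr21:67274785-67283112) and MEG3 (100335527, chr21:67377727-67395997) are neighbours, with 94.6 kb between them. H19 (100126192, chr29:50150775-50153147) and CDKN1C (510972, chr29:49368787-49370793) share chromosome 29, and IGF2R (281849, chr9:97638102-97741388) and PLAGL1 (539761, chr9:82418090-82508603) share chromosome 9. GRB10 (407210, chr4:5062316-5245263), SGCE (407209, chr4:11840462-11911811) and MEST (404180, chr4:95061474-95079691) are on chromosome 4. SGCE and PLAGL1 are on the minus strand and the rest on the plus strand. Only reads on annotated exons entered the counts.

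DLK1 encodes a membrane protein with epidermal growth factor repeats that resembles the Notch ligands, is shed in part from the cell surface, holds back the differentiation of fat cell precursors and marks hepatoblasts in fetal liver. It was at a low and even level in CON calves, with 104, 103, 92, 117, 126 and 110 reads in replicates 1 to 6. In MET calves the reads were 224, 182, 221, 251, 1017 and 164. Every MET library was thus above every CON library, and replicate 5 stood apart from the other MET libraries. In CPM, the CON samples lay at 12.4 for replicates 1 and 4, 12.9 for replicate 2, 10.5 for replicate 3, 13.1 for replicate 5 and 11.4 for replicate 6. The MET samples lay at 20.9 for replicates 1 and 3, 17.8 for replicate 2, 28.9 for replicate 4, 114 for replicate 5 and 16.9 for replicate 6. The groups did not overlap, and the lowest MET sample was 1.29 times the highest CON sample. Of all genes tested, 1.91% had all MET samples above all CON samples and 1.8% had all MET samples below all CON samples, and of the 9 genes 1, DLK1, was above and 0 were below.

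The mean of DLK1 was 12.1 ± 1.10 CPM in CON (SD, n = 5) and 39.7 ± 41.7 CPM in MET (SD, n = 5). The fitted log2 fold change was 1.71 (SE 0.49), a 3.27-fold difference, and 0.25% of all genes tested had one of at least this size. A large part of that came from 1 calf. MET replicate 5 had 5.39 times the mean of the other 4 MET samples and 9.42 times the CON mean. Without it, DLK1 was at 21.1 ± 5.46 CPM in MET (SD, n = 4), the log2 fold change was 0.80 (SE 0.17) and the fold 1.74. Leaving out any other sample kept the log2 fold change between 1.66 and 1.90.

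**Figure D1:**
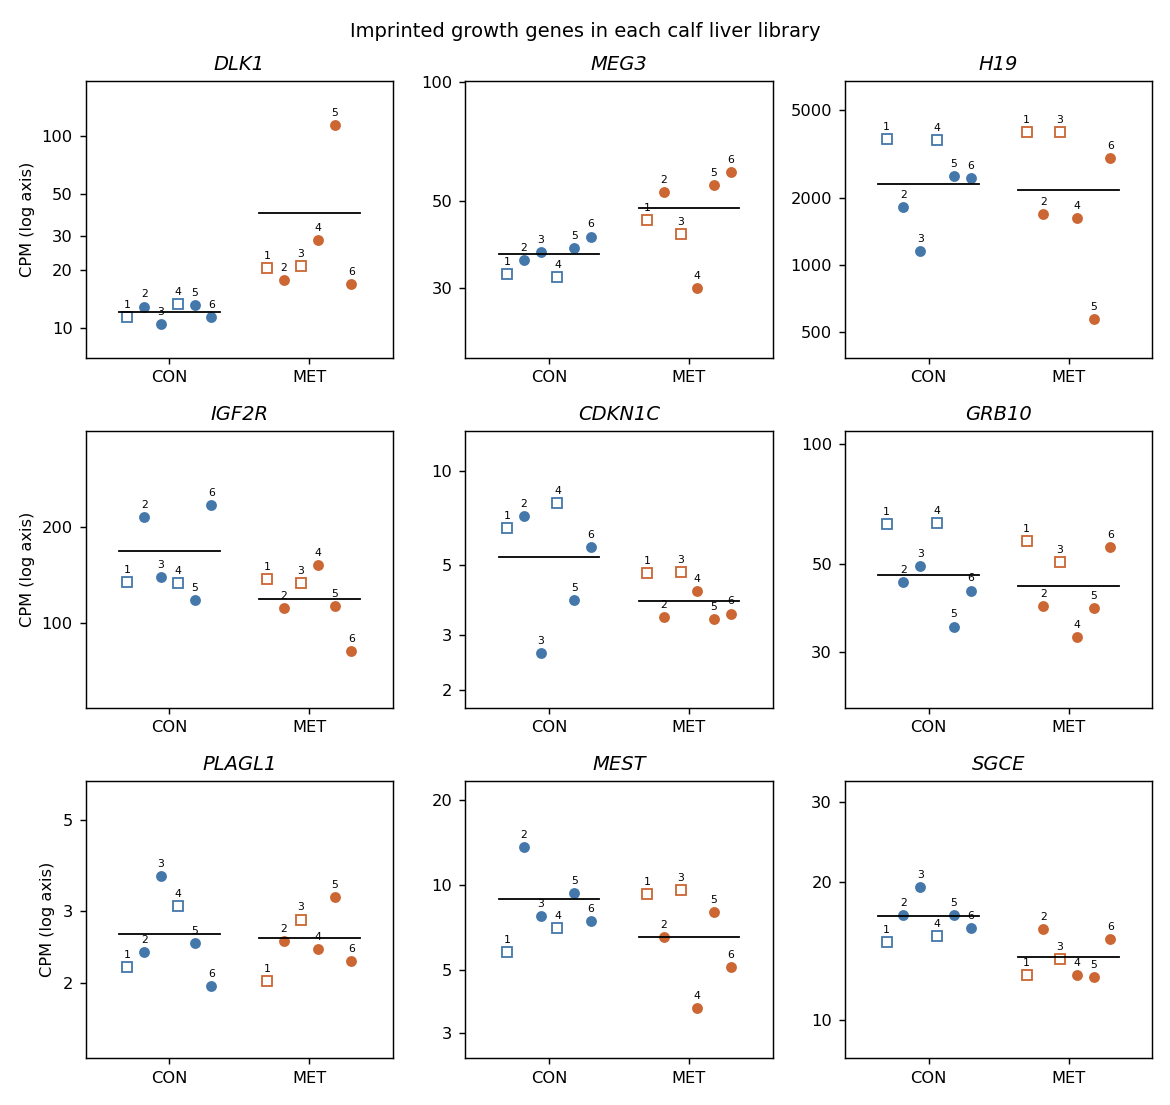
CPM of the 9 genes in each of the 12 libraries, on a log axis per gene, with CON in blue and MET in orange. Numbers are replicates, open squares are the libraries of the near-identical pairs, and the line is the mean of the 5 samples of a diet. DLK1 is between 16.9 and 114 CPM in all MET libraries and at 13.3 CPM or below in all CON libraries, while the diets overlap for the other 8 genes.

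The spread of DLK1 between calves differed between the diets as well. On the log2 CPM scale its SD was 0.13 in CON and 1.14 in MET, a ratio of 8.60, whereas 53.5% of all genes had the larger SD in MET. Among the 2686 genes whose mean level was within 0.5 log2 units of that of DLK1, its SD in MET was higher than that of 98.9% and its SD in CON higher than that of 14.0%. Of all genes tested, 0.0982% had a ratio of the SD at least as high. MET replicate 5 alone was 1.96 log2 units above the mean of its diet, and since this spread was behind the choice of DLK1 it is no finding. H19 was the other gene with a wide spread, with an SD of 0.62 in CON and 1.08 in MET. SGCE was the most even by the SD pooled over the diets, at 0.14 in CON and 0.16 in MET. In CON alone, DLK1 and MEG3 had a smaller SD than SGCE. In 6 of the 9 genes the SD was larger in MET and in 3 it was smaller, namely IGF2R, CDKN1C and PLAGL1.

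**Figure D2:**
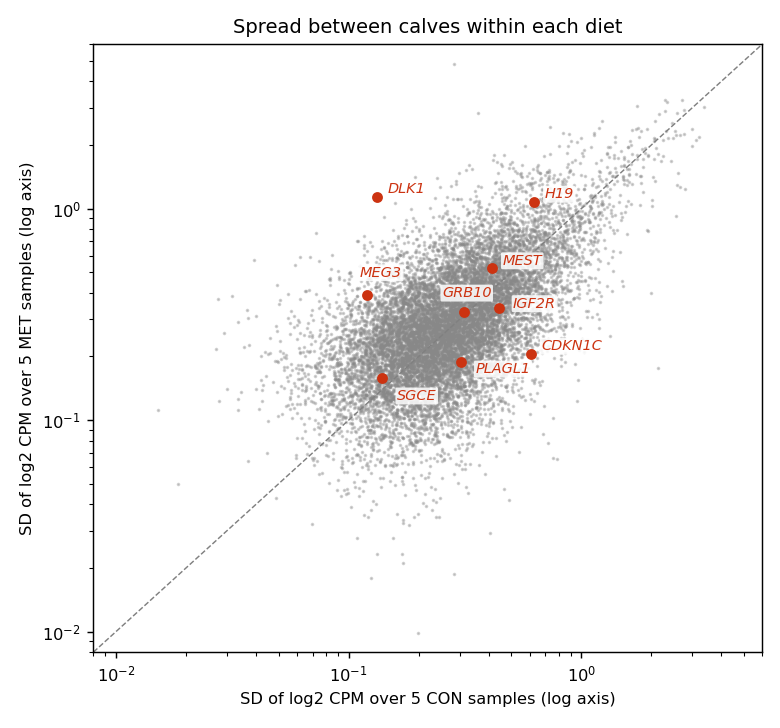
SD of log2 CPM over the 5 CON samples (x axis) and the 5 MET samples (y axis) of every gene tested, in grey, with the 9 genes in red and equal spread as a dashed line, both axes on a log scale. DLK1 lies at 0.13 in CON and 1.14 in MET, at the upper edge of the cloud, while SGCE lies near the line at 0.14 and 0.16.

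MEG3, a noncoding RNA of the same locus that is expressed from the maternal allele, had 32.4, 35.3, 37.2, 37.9 and 40.6 CPM in the CON samples, in the order of replicates 1 and 4, 2, 3, 5 and 6. In MET it had 42.9, 52.7, 30.04, 54.7 and 59.1 CPM, in the order of replicates 1 and 3, 2, 4, 5 and 6. In 4 of the 5 MET samples MEG3 was above all CON samples, but MET replicate 4 was the lowest of all 10, so that the groups overlapped. The means were 36.7 ± 3.06 CPM in CON and 47.9 ± 11.6 CPM in MET (SD, n = 5 each), with a log2 fold change of 0.39 (SE 0.17). MET replicate 4, lowest for MEG3, was the second highest for DLK1, and MET replicate 6, highest for MEG3, was the lowest MET sample for DLK1. The ratio of DLK1 to MEG3 CPM was between 0.281 and 0.382 in CON calves. In MET it was 0.486 in the sample of replicates 1 and 3, 0.337 in replicate 2, 0.962 in replicate 4, 2.08 in replicate 5 and 0.286 in replicate 6. The ratio thus lay within the CON range in 2 MET samples and above it in 3.

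The other transcripts of this locus were low. MEG8, a noncoding RNA downstream of MEG3, had 6.52 ± 2.38 CPM in CON and 7.73 ± 1.53 CPM in MET (SD, n = 5 each), with a log2 fold change of 0.23 (SE 0.26, adjusted p = 0.695 in edgeR's quasi-likelihood test). MEG9 had 1.05 ± 0.127 CPM in CON and 1.45 ± 0.439 CPM in MET (SD, n = 5 each), and its log2 fold change was 0.45 (SE 0.28, adjusted p = 0.442 in edgeR). RTL1, a retrotransposon-derived gene that is paternally expressed like DLK1, had 2 reads over all 12 libraries. BEGAIN, which lies before DLK1, had 14.6 ± 1.19 CPM in CON and 13.8 ± 6.13 CPM in MET (SD, n = 5 each), with a log2 fold change of -0.09 (SE 0.24, adjusted p = 0.889 in edgeR). MET replicate 5 had the highest BEGAIN of the 10 samples as well, at 24.3 CPM, and the other MET samples had 8.40 to 13.3 CPM. WDR25 had a log2 fold change of 0.39 (SE 0.19, adjusted p = 0.329 in edgeR). Of the 60 annotated genes within 250 kb of MEG3, most of them miRNAs, 52 had no read in any library. Libraries of polyadenylated RNA do not hold mature miRNAs.

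**Figure D3:**
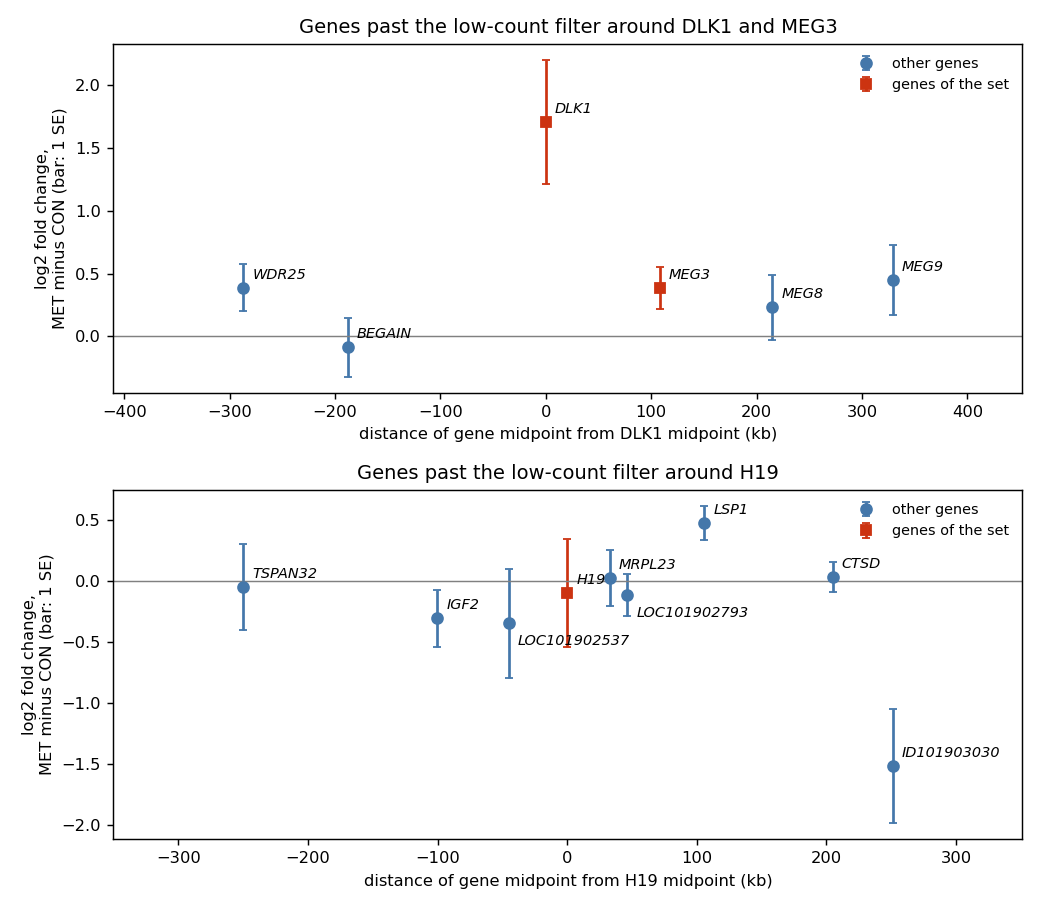
Log2 fold change, MET minus CON, of each gene that passed the low-count filter around DLK1 and MEG3 (upper) and around H19 (lower), against the distance of its midpoint from that of DLK1 or H19 in kb, with bars of 1 SE. DLK1 is at 1.71, and the other genes of its locus are between -0.09 and 0.45.

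H19 is a maternally expressed noncoding RNA that is abundant in fetal liver and lies beside IGF2. Its CON samples were at 3688, 1827, 1158, 2532 and 2467 CPM, and its MET samples at 3984, 1694, 1628, 573 and 3039 CPM, in the same order of replicates as for MEG3. The highest and the lowest of the 10 samples were both MET samples, and the diets overlapped over nearly the whole range. The means were 2334 ± 939 CPM in CON and 2184 ± 1334 CPM in MET (SD, n = 5 each), and the log2 fold change was -0.10 (SE 0.44). It was 0.14 (SE 0.35) without MET replicate 5, which had the lowest H19 and the highest DLK1. IGF2, the paternally expressed growth factor at 85.5 kb from H19, had 1695 ± 628 CPM in CON and 1374 ± 161 CPM in MET (SD, n = 5 each), with a log2 fold change of -0.30 (SE 0.23, adjusted p = 0.549 in edgeR). In single libraries IGF2 ran from 1003 to 2651 CPM in CON and from 1193 to 1529 CPM in MET, so that all MET values lay within the CON range. LSP1, a leukocyte protein at 85.1 kb on the other side of H19, had a log2 fold change of 0.48 (SE 0.14, adjusted p = 0.180 in edgeR), and the gene with Entrez ID 101903030, at 247.6 kb, had one of -1.52 (SE 0.47, adjusted p = 0.185 in edgeR). Neither passed the threshold of 0.10 over the 10 samples. Over the 12 libraries LSP1 passed it (adjusted p = 0.0849 in edgeR) and the other did not (adjusted p = 0.104 in edgeR), and all MET samples were above all CON samples for LSP1, from 15.2 to 20.4 CPM against 9.44 to 14.0 CPM. The other 5 genes around H19 that passed the filter were TSPAN32, MRPL23, CTSD and the loci LOC101902537 and LOC101902793, with adjusted p of 0.738 or more in edgeR.

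IGF2R, the receptor that takes up IGF2 and delivers it to the lysosome, had the lowest log2 fold change of the 9 genes over the 10 samples. Over the 12 libraries CDKN1C was lower, at -0.50 against -0.42 for IGF2R. Without MET replicate 5 MEST was lower, at -0.49 against -0.48 for IGF2R. The CON samples had 134, 214, 139, 118 and 234 CPM and the MET samples 136, 111, 152, 113 and 81.5 CPM, again in that order. CON replicates 2 and 6 were the highest, MET replicate 6 the lowest, and the rest were intermixed. The means were 168 ± 52.5 CPM in CON and 119 ± 26.7 CPM in MET (SD, n = 5 each), with a log2 fold change of -0.50 (SE 0.22) that lay between -0.60 and -0.35 with each sample left out in turn. AIRN, a noncoding RNA that overlaps IGF2R on the other strand and is counted apart from it by strand, had 4.00 ± 2.17 CPM in CON and 5.22 ± 5.46 CPM in MET (SD, n = 5 each).

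CDKN1C, an inhibitor of cyclin-dependent kinases that brings cells out of the cycle, was at 7.22, 7.17, 2.63, 3.86 and 5.71 CPM in CON and at 4.74, 3.42, 4.14, 3.36 and 3.51 CPM in MET. The MET samples lay inside the CON range, since CON replicate 3 was the lowest of all. The means were 5.32 ± 2.03 CPM in CON and 3.83 ± 0.596 CPM in MET (SD, n = 5 each), and the log2 fold change was -0.47 (SE 0.27). With 23 to 69 reads per library, counting error alone was up to 20.9% of a value.

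GRB10, an adaptor that dampens signalling of the insulin and IGF receptors, and PLAGL1, a zinc-finger transcription factor that slows the cell cycle, showed the least difference besides H19. GRB10 had 47.0 ± 10.4 CPM in CON and 43.9 ± 9.96 CPM in MET (SD, n = 5 each), from 34.8 to 63.0 and from 32.7 to 55.1 CPM, and its log2 fold change was -0.10 (SE 0.18). PLAGL1 had 2.63 ± 0.626 CPM in CON and 2.58 ± 0.383 CPM in MET (SD, n = 5 each), and its log2 fold change was -0.03 (SE 0.22). It had 19 to 32 reads per library. Counting error alone was 17.7 to 22.9% of the value of a single library, and smaller differences between single libraries were not detectable.

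MEST, an enzyme of the alpha/beta hydrolase fold that is expressed from the paternal allele in mesoderm and expanding fat, had 6.44, 13.7, 7.78, 9.38 and 7.47 CPM in CON and 9.47, 6.54, 3.68, 8.06 and 5.15 CPM in MET. CON replicate 2 was the highest and MET replicate 4 the lowest, and the remaining samples overlapped. The log2 fold change was -0.42 (SE 0.27) between means of 8.96 ± 2.86 CPM in CON and 6.58 ± 2.29 CPM in MET (SD, n = 5 each). Over the 12 libraries it was -0.27 (SE 0.25).

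SGCE, the epsilon member of the sarcoglycans and a paternally expressed gene, had 15.0, 17.0, 19.6, 17.0 and 15.9 CPM in CON and 13.1, 15.8, 12.6, 12.4 and 15.1 CPM in MET. Of the MET samples, 3 were below all CON samples, and replicates 2 and 6 were above the lowest CON sample. The means were 16.9 ± 1.701 CPM in CON and 13.8 ± 1.55 CPM in MET (SD, n = 5 each). Because calves of a diet were alike, the difference had a small error, with a log2 fold change of -0.29 (SE 0.12) that lay between -0.34 and -0.23 with each sample left out in turn. PEG10, which starts 0.2 kb from SGCE on the opposite strand, had 103 ± 30.2 CPM in CON and 73.9 ± 27.9 CPM in MET (SD, n = 5 each), with a log2 fold change of -0.47 (SE 0.28, adjusted p = 0.415 in edgeR).

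DLK1 and MEG3, the pair on chromosome 21, were thus higher in MET by point estimate and the other 7 genes lower. The median log2 fold change of the 9 was -0.10, against -0.003 for all genes tested, of which 49.5% were higher in MET. For 3 of the 9 the difference was within 1 SE, and for 5 it was below 2 SE. By the quasi-likelihood test of edgeR, adjusted after Benjamini and Hochberg, 0 of the 9 genes over the 10 samples had an adjusted p of at most 0.10, as for 0% of all genes. By unadjusted p of at most 0.05 the count was 4 of 9, against 16.3% of all genes. DESeq2 called 1 of the 9 over the same samples, against 5.71% of genes with an adjusted value, and edgeR over the 12 libraries called 1, against 4.41% of genes. In both cases this was DLK1. Since the genes were chosen with this contrast known, nothing is read from these counts.

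**Figure D4:**
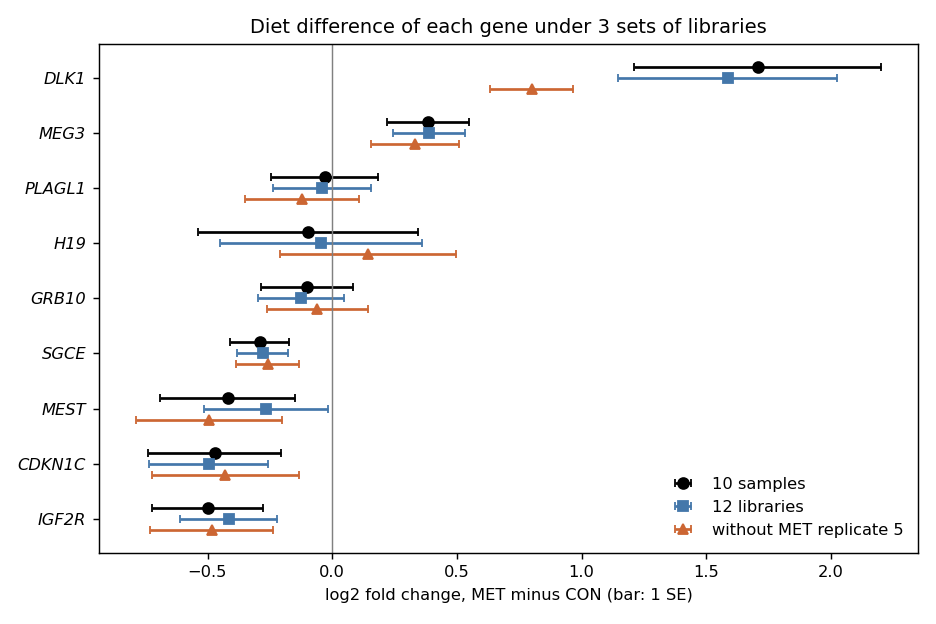
Log2 fold change, MET minus CON, of the 9 genes with bars of 1 SE, over the 10 samples (black circles), over the 12 libraries (blue squares) and over the 9 samples without MET replicate 5 (orange triangles). DLK1 is at 1.71, 1.59 and 0.80 in the 3 fits, and the other genes are between -0.50 and 0.39.

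Within a diet, the 9 genes did not move as a block. After each diet was centred on its mean, Pearson correlations over the 10 samples ran from -0.72 to 0.50 for the 36 pairs, with 20 of them positive. None had an adjusted p of at most 0.10 (lowest adjusted p = 0.661 for r and 0.892 for Spearman's rho, exact permutation within diets, two-sided, Benjamini-Hochberg over the 36 pairs), and 2 pairs had an unadjusted p of at most 0.05. DLK1 and MEG3 had r = 0.06 (rho = -0.20, exact permutation p = 0.891 and 0.659) after centring, and r = -0.32 without MET replicates 5 and 6. The most negative pair was DLK1 with H19 at r = -0.72 (rho = -0.39, exact permutation p = 0.0956 and 0.292), and it rested on these samples, as r was -0.12 without the 2 farthest from the median of DLK1, MET replicates 5 and 6. DLK1 and SGCE had r = -0.76 (rho = -0.83) when the diets were pooled (exact permutation p = 0.00319 and 0.00471, adjusted p = 0.115 and 0.170), which contains the diet difference that chose DLK1. Without MET replicates 4 and 5 the pooled value was -0.78, and after centring it was -0.55 (rho = -0.55, exact permutation p = 0.0765 and 0.0833), and -0.50 without MET replicates 5 and 6. H19 and CDKN1C, on the same chromosome, had r = 0.49 (rho = 0.48, exact permutation p = 0.0703 and 0.163) after centring, and 0.53 without the sample of MET replicates 1 and 3 and MET replicate 5.

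**Figure D5:**
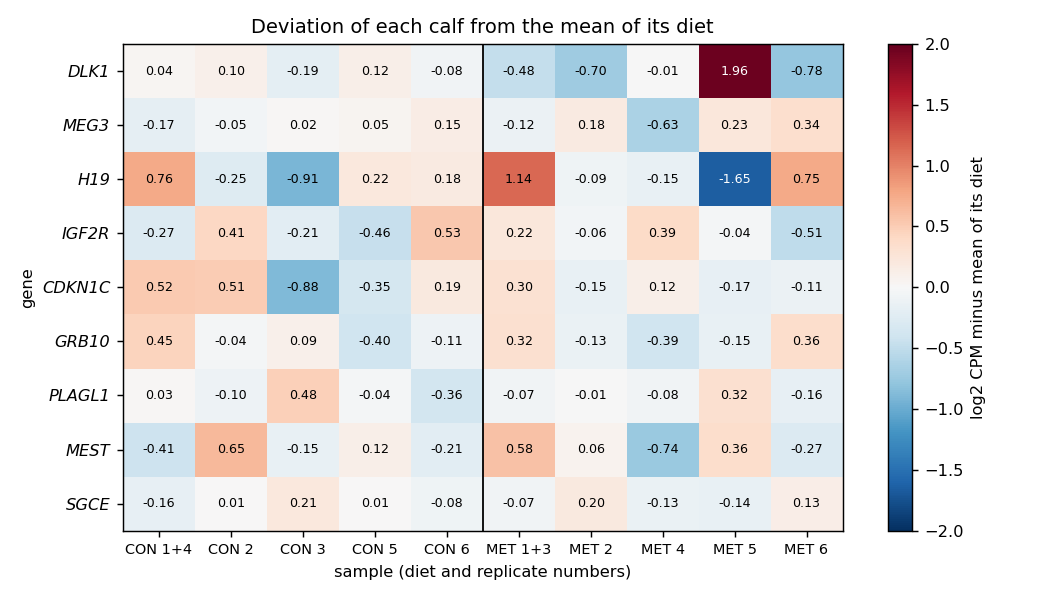
Log2 CPM of each gene in each of the 10 samples minus the mean of its diet, from -2 (blue) to 2 (red). MET replicate 5 is 1.96 above its diet mean for DLK1 and 1.65 below it for H19, and no sample deviates in the same direction for all 9 genes.

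Partners of the imprinted genes, at the same locus except for the receptor IGF2R and its ligand IGF2, were set against them in the same way, over 10 pairs chosen after the values had been seen. Diet-centred r ran from -0.60 to 0.66, and no pair had an adjusted p of at most 0.10 (lowest adjusted p = 0.249, exact permutation within diets, two-sided). IGF2R and its antisense RNA AIRN had r = 0.66 (rho = 0.49, exact permutation p = 0.0249 and 0.153), which was 0.44 without CON replicate 6 and MET replicate 6. MEG3 and MEG9 had r = 0.65 (rho = 0.77, exact permutation p = 0.152 and 0.0489), and 0.65 without MET replicates 4 and 6. MEG9 had only 5 to 18 reads per library, so that counting error weighs on this value. H19 and IGF2 had r = 0.10 (rho = 0.22, exact permutation p = 0.749 and 0.534), and 0.32 without the sample of MET replicates 1 and 3 and MET replicate 5. The receptor IGF2R and its ligand IGF2 had r = -0.60 (rho = -0.75, exact permutation p = 0.131 and 0.0537), and -0.61 without CON replicate 6 and MET replicate 6.

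The genes whose diet-centred pattern was most like that of DLK1 over the 10 samples were TTC17 with r = 0.91, PRR12 with 0.91, ATF6B with 0.89 and the Entrez IDs 107131274 with 0.88 and 101905432 with 0.87. These are given as a description, with no p. In MET replicate 5 all 5 were above the other samples, and without that calf r was 0.24 for TTC17, 0.54 for PRR12, 0.47 for ATF6B and 0.20 for the first of the IDs, but 0.85 for the second over the remaining 9 samples.

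The sample with high DLK1 was also the library farthest from the others, as given above. It had the lowest TMM factor, at 0.895, against 0.896 in CON replicate 2 and 0.951 to 1.15 in the other samples. FGG, a fibrinogen chain made by hepatocytes, was at 51530 CPM there and at most at 36980 CPM in the other samples. ALB, the serum albumin, and TF, the iron carrier transferrin, were the lowest of the 10 samples there, at 30440 CPM against 33500 to 72310 CPM and at 32900 CPM against 36790 to 60590 CPM. The sum of hepatocyte markers was 257900 CPM, the second highest of the 10 samples. By rank, MET replicate 5 had the highest value of the 10 samples in 8.5% of all genes and the lowest in 9.7%, and ranges over the samples were 5.3 to 15.0% and 5.1 to 15.5%. Among the 9 genes it was the highest for DLK1, the second highest for MEG3 and PLAGL1, and the lowest for H19 and SGCE. Markers of other tissues that can express DLK1 were summed as well. For skeletal muscle the sum in MET replicate 5 was 23.2 CPM, against 19.8 to 34.4 CPM in the other samples. DES, which is also on the stellate cell list, gave 21.7 CPM of it. ACTA1, CKM, MYH2, MYL1, MYOD1 and MYOG had no read in any library. The sum for adipose markers was 39.1 CPM, against 35.4 to 45.6 CPM, with ADIPOQ and LEP at 0 reads in all libraries. Adrenal markers summed to 363 CPM, against 227 to 518 CPM, nearly all of it CYP11A1, with MC2R at 0 reads. Pancreas markers summed to 1.12 CPM, against 0.572 to 2.19 CPM, with INS at 0 reads. The part of depth, composition or other tissues in the DLK1 level of this library was not tested.

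Markers of fetal liver were measured in the same way. AFP, the fetal albumin, had 0 reads in MET replicate 5 and 3 to 16 reads in the other libraries. GPC3, a fetal liver surface protein, was at 1142 CPM there, and its means were 1465 ± 447 CPM in CON and 1005 ± 256 CPM in MET (SD, n = 5 each). Of the fetal liver and hepatoblast list, 11 of 17 genes passed the filter, 4 were higher and 7 lower in MET. The sum was 1308 CPM in MET replicate 5, most of it GPC3, against 904 to 2027 CPM in the other samples. Stellate cell and fibroblast markers were lower in MET by point estimate in 16 of 18 genes, with sums of 924 to 1351 CPM in CON and 761 to 1222 CPM in MET, and endothelial markers were lower in 6 of 11, with sums of 430 to 666 CPM in CON and 398 to 660 CPM in MET. Erythroid markers ran from 21.7 to 1108 CPM in CON and from 85.7 to 604 CPM in MET.

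Kupffer cell and leukocyte markers differed in sum between the diets. All 13 genes of the list that passed the filter were higher in MET by point estimate. Of these, 6 had an unadjusted p of at most 0.05 in edgeR, against 7.83% of all genes in that direction. With adjustment 0 were called over the 10 samples in edgeR, and 4 over the 12 libraries, against 4.41% of all genes. DESeq2 called 4, against 5.71% of genes with an adjusted value. The summed level of the list was 1551 to 2012 CPM in CON and 2080 to 2325 CPM in MET, without overlap. MET replicate 5 had the lowest sum of the MET samples. Markers of dividing cells were lower in MET by point estimate in 8 of 8 genes, 5 of them at unadjusted p of at most 0.05, against 8.52% of all genes. Their sums overlapped, at 48.0 to 118 CPM in CON and 33.6 to 60.7 CPM in MET. With adjustment 0 were called over the 10 samples in edgeR, and 2 over the 12 libraries, against 4.41% of all genes. DESeq2 called 4, against 5.71%. Hepatocyte markers were lower in 10 of 15 genes. The part of these shifts in the values of the imprinted genes was not tested.

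Of 60 other genes listed as imprinted that were matched, 39 passed the filter, 14 higher and 25 lower in MET. Whether they are imprinted in calf liver was not measured. Their median log2 fold change was -0.09, against -0.003 and 49.5% higher among all genes. By unadjusted p of at most 0.05 in edgeR, 3 were higher, against 7.83% of all genes, and 4 lower, against 8.52%. With adjustment 0 were called over the 10 samples, while DESeq2 called 2, against 5.71% of genes with an adjusted value, and the fit of the 12 libraries called 2, against 4.41%. The latter 2 were TSSC4 and GATM. TSSC4, at the locus of CDKN1C, had 18.4 ± 2.61 CPM in CON and 29.2 ± 5.96 CPM in MET (SD, n = 5 each). All its MET samples were above all CON samples, as in 1.91% of all genes. The log2 fold change was 0.66 (SE 0.16, adjusted p = 0.174 over the 10 samples and 0.0755 over the 12 libraries, edgeR). GATM, the first enzyme of creatine synthesis, had 1500 ± 478 CPM in CON and 759 ± 347 CPM in MET (SD, n = 5 each), with a log2 fold change of -0.98 (SE 0.31, adjusted p = 0.189 and 0.0855, edgeR). Of 25 genes that set, keep or read imprints, 16 passed the filter and 13 of these were lower. By unadjusted p of at most 0.05, 0 were higher, against 7.83% of all genes, and 1 lower, against 8.52%. With adjustment 0 were called over the 10 samples in edgeR. DESeq2 called 1, against 5.71%, and the fit of the 12 libraries 1, against 4.41%. The latter was SMCHD1, a chromatin protein that silences clustered and imprinted genes. It had 31.0 ± 1.96 CPM in CON and 22.8 ± 2.23 CPM in MET (SD, n = 5 each). All MET samples were below all CON samples, as in 1.8% of all genes. The log2 fold change was -0.44 (SE 0.10, adjusted p = 0.174 and 0.0674, edgeR). CTCF, which insulates the H19 and IGF2 locus, had one of -0.10 (SE 0.11, adjusted p = 0.691 over the 10 samples in edgeR).

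Partners of the proteins were measured next to them. Of the Notch pathway and the proteases that shed DLK1, 31 of 35 genes passed the filter, 13 higher and 18 lower in MET, and 1 and 2 of these had an unadjusted p of at most 0.05, against 7.83% and 8.52% of all genes in those directions. None passed the adjusted threshold in edgeR, in DESeq2 or over the 12 libraries. The receptor NOTCH2 had 50.5 ± 7.95 CPM in CON and 38.6 ± 3.66 CPM in MET (SD, n = 5 each), with a log2 fold change of -0.39 (SE 0.13, adjusted p = 0.195 over the 10 samples and 0.107 over the 12 libraries, edgeR). In the summed level of this list MET replicate 5, with its high DLK1, was the lowest of the 10 samples at 603 CPM, although the next sample was at 604 CPM and the range went to 718 CPM.

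A further list held partners of IGF2R, GRB10, CDKN1C and SGCE, and joined IGF and insulin genes with cell-cycle genes, sarcoglycans and others. Of its 40 genes, 36 passed the filter, and 25 were lower in MET. By unadjusted p of at most 0.05, 7 were lower, against 8.52% of all genes, and 0 higher, against 7.83%. The 7 include cell-cycle genes and SGCB besides IGF and insulin genes. None passed the adjusted threshold over the 10 samples in edgeR. DESeq2 called 6, against 5.71% of genes with an adjusted value, and the fit of the 12 libraries called 3, against 4.41%, which were IGFBP1, IRS1 and SGCB. IGFBP1, a secreted binding protein of the IGFs that liver makes in fasting, had 342 ± 239 CPM in CON and 62.1 ± 44.7 CPM in MET (SD, n = 5 each), with a log2 fold change of -2.46 (SE 0.78, adjusted p = 0.192 and 0.0766, edgeR). IRS1, a docking protein of the insulin receptor, had 65.7 ± 14.0 CPM in CON and 43.8 ± 7.28 CPM in MET (SD, n = 5 each), with a log2 fold change of -0.58 (SE 0.16, adjusted p = 0.176 and 0.0759, edgeR). SGCB, which forms the sarcoglycan complex with members of the family of SGCE, had 20.3 ± 2.45 CPM in CON and 15.4 ± 1.55 CPM in MET (SD, n = 5 each), with a log2 fold change of -0.40 (SE 0.12, adjusted p = 0.181 and 0.0684, edgeR). CDKN2C, another inhibitor of cyclin-dependent kinases, had one of -1.11 (SE 0.34, adjusted p = 0.187 and 0.138, edgeR).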

How the data were processed

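Polyadenylated RNA of calf liver was sequenced in 12 libraries on a single lane. After trimming, STAR 2.5.3a was used by the authors for alignment against the cattle genome UMD 3.1.1, and featureCounts of Subread 1.5.2 for the assignment to exons. The values deposited are raw counts, not normalized, with Entrez identifiers. Counting used strand and skipped reads with several matches or genes. Names came from a RefSeq table of a later assembly, and positions from the count files.

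The imprinted genes and the 15 lists of related genes and cell markers were chosen with earlier results of these data known. Genes were named by a rule: the listed imprinted genes, and from each list those with an adjusted p of at most 0.10 over the 10 samples or the 12 libraries, an unadjusted p of at most 0.01, or a place among the 3 highest levels per length. Neighbours within 250 kb of DLK1, MEG3 and H19 that passed the filter, the 5 genes most like DLK1, AFP and IGF2 were added. Of the genes this rule chose, some are given only by the counts of their list. RTL1 and the markers at 0 reads were named after their values were seen.

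Counts of the near-identical libraries were summed, which gave 10 samples. They were filtered with edgeR's default (minimum count of 10, minimum total of 15), scaled by TMM and fitted with the quasi-likelihood model of edgeR 4.0.16 in R 4.3.3, with diet alone and without robust estimation. This left 13242 genes, or 13212 over the 12 libraries. Benjamini-Hochberg adjustment covered all genes tested, and the threshold was 0.10 as in the study. The SE of a fold change is its size divided by the root of the test statistic. CPM of a pair were averaged. Correlations used log2 CPM with a prior count of 2, with exact two-sided p over 3628800 arrangements, or 14400 within diets. The design fixed 45 pairs, but with 9 genes measured there were 36. The p-values within diets and the pairs with partner genes were added after the data had been seen. Alternatives were RLE factors, no filter, DESeq2 1.42.0, the 12 libraries, 1 library of each pair, the replicate block, a prior count of 0.5 and each sample left out. The steps were tested on simulated data. The labels give each library as a separate calf. Sequences were not used here.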

Additional observations from a re-analysis of the deposited data

Results flagged for a closer look

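Within each diet, the highest and the lowest of the 5 samples were checked for a gap to the rest, over 22 groups, which are the 9 imprinted genes, AFP and IGF2 in either diet. A gap above Dixon's limit of 0.71 of the whole range was taken as far from the others, which chance gives in about 1 in 20 groups. MET replicate 5 was such a sample for DLK1, at 113.8 CPM with the next MET sample at 28.9 CPM and a gap of 0.876 of the range. Since DLK1 was chosen for its wide variation among these calves, this restates the choice, and the chance rate does not apply to it. MET replicate 5 was also far from the others for PLAGL1, at 3.245 CPM with the next MET sample at 2.54 CPM and a gap of 0.723 of the range. This gap rests on the averaging of MET replicates 1 and 3, as replicate 3 alone was at 2.861 CPM with 30 reads, against 29 reads in replicate 5. PLAGL1 had at most 32 reads in any library, and DLK1 had 1017 reads in that of MET replicate 5.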

How the results depend on the processing

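The diets share 6 replicate numbers, but same-numbered libraries did not deviate together (r between -0.19 and 0.15, over 0.1 in 1 of 6, and 0 libraries closest to their own number). This does not settle whether the numbers pair calves, since paired calves need not deviate together. With the replicate block, 6 genes had an adjusted p of at most 0.10, against 583 over the same 12 libraries without it, and of the 9 imprinted genes 0 were called, against 1, DLK1, without it. The log2 fold change of DLK1 with the block was 1.17. Over the 10 samples the count of such genes was 0 in edgeR, with 2165 genes at an unadjusted p of at most 0.05, and 639 in DESeq2, and with each sample left out in turn it was between 0 and 39. The highest came without MET replicates 1 and 3. The log2 fold change of DLK1 was between 0.80 and 1.90 with each sample left out, with 0.80 without MET replicate 5. Of the 9 genes, 2 to 4 were higher in MET over these fits, and 4 without CON replicates 1 and 4. H19, GRB10 and PLAGL1 changed sign in 2, 1 and 2 of the 16 alternatives, and the other 6 in none. Pairs of the 9 genes with r of at least 0.7 in size numbered 1 over the 10 samples and 1 to 4 with a sample left out, with 4 without CON replicate 3, 3 without CON replicates 1 and 4, and 2 without CON replicate 6 or without MET replicates 1 and 3. Of 204 values computed under the alternatives, 10 moved by more than the spread between samples or the limit for counts, and these are the ones given above. The causes of these changes were not tested. Depth limits CDKN1C, MEST and PLAGL1, whose reads per library went down to 23, 32 and 19.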
